A study of Mus musculus with 6 samples.

Results

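Insulin-like growth factors (IGFs) are secreted peptides that keep myoblasts alive, support their proliferation and drive their fusion into muscle fibers. The ligands Igf1 and Igf2 act through the receptor tyrosine kinase Igf1r, whereas Igf2r carries Igf2 to the lysosome and passes on no such signal. The IGF binding proteins are secreted carriers that hold the ligands, extend their life in the medium and either withhold them from Igf1r or deliver them to it. Differentiating myoblasts are known to make Igf2 as an autocrine signal, together with Igfbp5. The genes described here were chosen by name from the count table, as the 2 ligands, the 2 receptors and the 6 binding proteins Igfbp2 to Igfbp7, so that 10 of the 47069 listed genes form the set. All 10 were found and all 10 passed the filter on low counts, as did 14165 genes in all.

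The cells were primary myoblasts of mdx mice, which lack dystrophin and model Duchenne muscular dystrophy. They were sorted from muscle with antibodies against Itga7 and Itgb1, without cells carrying Sca-1, CD45, CD31 or CD11b. The study's methods describe growth in Ham's F10 medium with fetal bovine serum and FGF2, and differentiation in a low-serum medium. The methods on RNA sequencing do not name the medium of the sequenced cells. To compare their transcriptomes, the cells of 3 libraries received PSB-KD107 at 10 μM, a synthetic agonist of the receptor Gpr18, and those of 3 received vehicle. The study's methods give 3 mice as the source and 16 h of treatment, whereas the sample records give 2 days. The titles of the treated samples write PSB-KD-1, which was taken as PSB-KD107, the name in the treatment text of the same records. For its animal experiments the study used male mdx mice of the C57BL/10 background at 10 weeks of age, and it does not state separately which mice gave the sorted cells. All groups share the mdx genotype, so that no healthy myoblasts enter the comparison.

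The 6 libraries held between 30917613 and 48756794 counts, and a floor of 3 counts corresponded to between 0.0596 and 0.0962 CPM (counts scaled to the TMM-normalized library size), a limit set by counting error only. The libraries are named here by the numbers of the count table, 1, 2 and 4 in each group. PSB-KD107 library 4 stood apart, with 422 genes at least 2-fold above and 142 genes at least 2-fold below every other library. The next highest of these counts in any library were 116 above, in vehicle library 1, and 21 below. Values without PSB-KD107 library 4 are given beside the results that it moved most. The sample titles call the cells muscle stem cells. The satellite cell gene Pax7 was present at 26.7 to 68.7 CPM. Myog, which marks committed myoblasts, reached 1170 to 2200 CPM and the embryonic myosin Myh3 reached 11800 to 18200 CPM. The cells thus carried differentiation transcripts at high levels in all 6 libraries. The genes of the surface proteins used to sort cells out were low, with at most 0.0321 CPM of Ptprc (CD45), 0.357 CPM of Pecam1 (CD31), 4.23 CPM of Itgam (CD11b) and 8.35 CPM of Ly6a (Sca-1), the last in PSB-KD107 library 4.

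The fitted difference was negative for 7 and positive for 3 of the 10 genes, where 50.1% of all genes tested were negative. For 6 of these 10, Igf2r, Igfbp2, Igfbp4, Igfbp5, Igfbp6 and Igfbp7, the sign turned when single libraries were left out, and without PSB-KD107 library 4 the split was 8 negative and 2 positive. The median log2 fold change of the 10 genes was -0.28, where that of all 14165 genes tested was 0, and it was -0.27 without PSB-KD107 library 4. The edgeR quasi-likelihood test, with p-values adjusted by the Benjamini-Hochberg method over the whole table, called 0 of the 10 genes at a threshold of 0.05, and 0% of all genes tested. At an unadjusted p-value under 0.05, the genes Igf1 and Igfbp3 were lower and 0 were higher, against a background of 9.4% of all genes, with 2.93% lower and 6.47% higher. DESeq2, the package named in the methods, called the same 2 genes lower at an adjusted p-value under 0.05. It called 2.98% of the 13761 genes to which it gave an adjusted p-value, with 0.719% lower and 2.26% higher. Igfbp4 was given no p-value in this DESeq2 run. For 3 of the 10 genes, Igf1, Igf2 and Igfbp3, every PSB-KD107 library lay below every vehicle library. Over all genes tested the groups stood apart in this way for 15.8%, with 6.59% lower and 9.19% higher. With 3 libraries against 3, the two-sided exact permutation test cannot give a p-value below 0.1, the value reached by these 3 genes. The methods do not say which library came from which mouse, so the p-values measure the spread between these libraries.

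**Figure D1:**
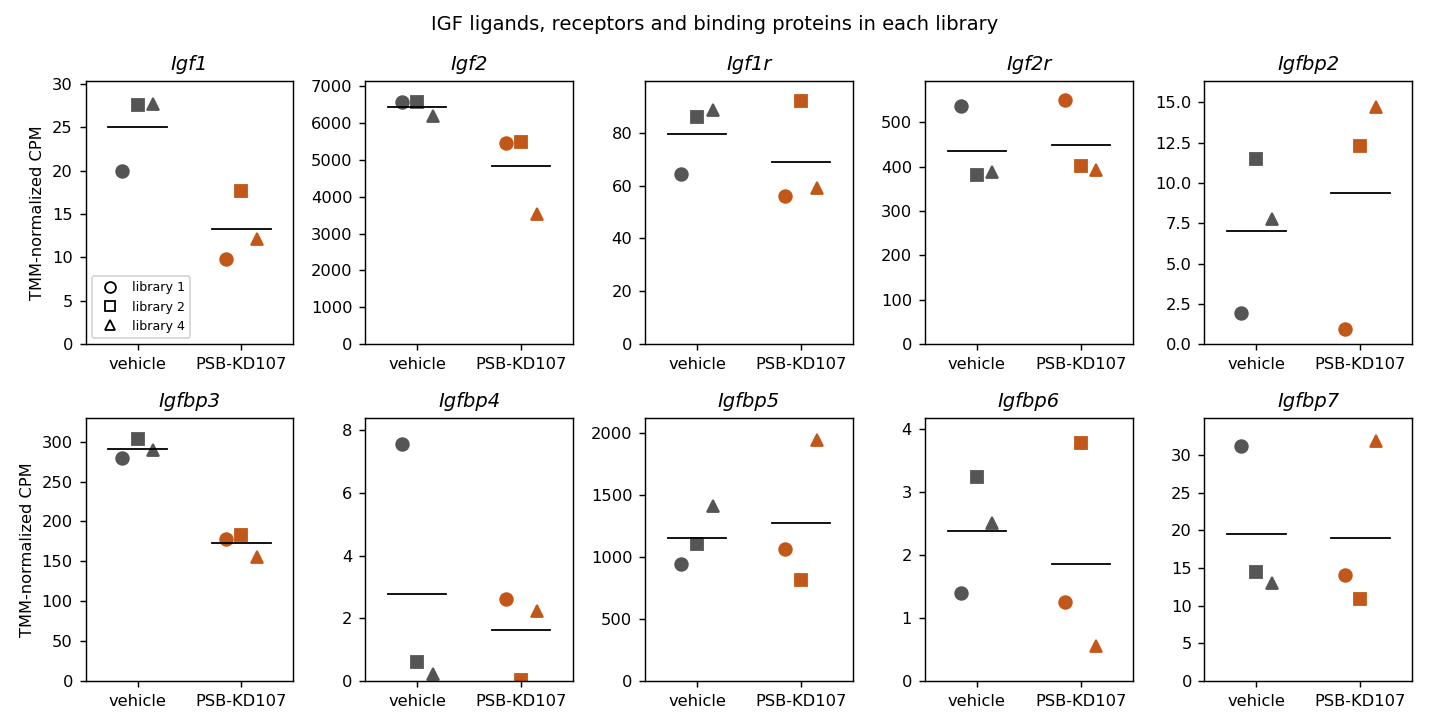
TMM-normalized CPM (vertical axes, each from 0) of the 10 genes in vehicle and PSB-KD107 libraries, where each symbol is 1 library, its shape gives the table's number and the bar is the mean of 3 libraries. The 3 PSB-KD107 libraries lie below the 3 vehicle libraries for Igf1, Igf2 and Igfbp3, and the groups overlap for the others.

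Because longer transcripts collect more reads, levels of different genes were compared as FPKM, which are CPM per kilobase of annotated exon. In vehicle libraries Igf2 was by far the most abundant of the 10 genes, with 1126 ± 38.5 FPKM (mean ± SD, n = 3), higher than or equal to 99.9% of all genes tested. It was followed by Igfbp5 with 192.1 ± 39.8 FPKM, Igfbp3 with 92.9 ± 3.95 FPKM, Igf2r with 46.8 ± 9.39 FPKM and Igfbp7 with 16.2 ± 8.34 FPKM. Each of these 5 genes lay above the next in every vehicle library. The other 5 genes, Igf1r with 4.74 ± 0.782 FPKM, Igfbp2 with 3.81 ± 2.60 FPKM, Igf1 with 2.53 ± 0.447 FPKM, Igfbp6 with 2.14 ± 0.830 FPKM and Igfbp4, overlapped with their neighbors in this order. Igfbp4, a carrier mostly known to withhold IGFs from the receptor, varied from 0.0491 to 1.71 FPKM between vehicle libraries. The myoblasts thus held much more Igf2 than Igf1 transcript per length, and more Igf2r than Igf1r.

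To show the promoters of the binding protein gene with the smallest p-value and of the ligand gene with the highest level, the 250 bases before the RefSeq start (GRCm38.p6, read in the direction of transcription) were taken, with each E-box (CANNTG, the letters bound by basic helix-loop-helix factors such as Myod1 and Myog) in capitals. Igf2 has several starts in RefSeq and the window of the outermost was printed, chr7:142666817-142667066, on the minus strand. The Igfbp3 window is chr11:7213924-7214173, also on the minus strand. Neither window overlaps an annotated exon.
Igfbp3: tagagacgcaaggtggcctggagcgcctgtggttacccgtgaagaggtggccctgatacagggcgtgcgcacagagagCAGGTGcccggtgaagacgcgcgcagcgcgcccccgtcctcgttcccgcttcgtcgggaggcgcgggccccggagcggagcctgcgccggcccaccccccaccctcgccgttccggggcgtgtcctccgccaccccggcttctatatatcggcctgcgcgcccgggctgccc
Igf2: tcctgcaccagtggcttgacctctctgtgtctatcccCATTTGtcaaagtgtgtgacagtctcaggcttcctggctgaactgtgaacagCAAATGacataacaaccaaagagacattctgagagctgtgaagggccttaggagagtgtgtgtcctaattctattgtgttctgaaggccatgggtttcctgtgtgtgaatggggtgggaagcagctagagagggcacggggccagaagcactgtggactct
The Igfbp3 window had a GC content of 73.2% and 1 E-box, and the printed Igf2 window had a GC content of 50.8% and 2 E-boxes. An E-box was also found in 66.2% of the 32851 mouse promoters of this length, so its presence sets neither gene apart. The letters TATAAA, searched on both strands, were absent from both windows and present in 12.4% of all promoters. The windows of the other RefSeq starts of Igf2 had 0 E-boxes each. Their GC contents were 66.0%, 68.8% and 47.6%. Which Igf2 start the cells used was not tested.

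Among the ligands, Igf1 (ENSMUSG00000020053, chromosome 10 from 87858265 to 87937042 in GRCm38) was lower in every PSB-KD107 library than in any vehicle library. The vehicle libraries 1, 2 and 4 had 19.9, 27.5 and 27.7 CPM, and the PSB-KD107 libraries 1, 2 and 4 had 9.87, 17.7 and 12.1 CPM. The groups did not overlap, and the highest PSB-KD107 value, in library 2, came close to the lowest vehicle value, in library 1. The level was 0.528 times that of vehicle (95% interval 0.34 to 0.821), a log2 fold change of -0.92 with a standard error of 0.26, an unadjusted p-value of 0.012 and an adjusted p-value of 0.371 in edgeR's quasi-likelihood test. DESeq2 gave an adjusted p-value of 0.0452 for Igf1. That call was kept without vehicle library 1 (0.0192) and without PSB-KD107 library 2 (0.000481), and it was lost without any of the other 4 libraries. The edgeR log2 fold change of Igf1 ranged from -1.19 to -0.76 as single libraries were left out, and was -0.86 without PSB-KD107 library 4. Igf1 counts of 441 to 962 per library stand behind these values.

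Igf2 (ENSMUSG00000048583, chromosome 7 from 142650766 to 142666816), an imprinted growth factor gene read from the paternal copy, was lower on average with PSB-KD107 but stayed among the most abundant transcripts. It had 6580, 6560 and 6190 CPM in vehicle libraries 1, 2 and 4, and 5460, 5470 and 3540 CPM in PSB-KD107 libraries 1, 2 and 4. The groups did not overlap, and PSB-KD107 library 4 was far below the other 2 treated libraries. The mean went from 6443 ± 220 CPM to 4824 ± 1110 CPM (SD, n = 3), with a log2 fold change of -0.42 (SE 0.21, 95% interval -0.92 to 0.09). In edgeR's quasi-likelihood test the unadjusted p-value was 0.0887 and the adjusted p-value 0.611, so the difference was not called. Without PSB-KD107 library 4 the log2 fold change of Igf2 was -0.24 (SE 0.10, unadjusted p = 0.0662 by edgeR). DESeq2 gave an unadjusted p-value of 0.0476 for Igf2 over all 6 libraries and an adjusted p-value of 0.442. The annotation places Igf2os on the opposite strand, with 97 to 462 counts, and Mir483 inside Igf2, with 9 to 48 counts, which are small beside the 128965 to 274839 counts of Igf2.

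Since both ligands were lower, their ratio was compared. Per length, the Igf2 level was 571.5, 411.9 and 387.2 times that of Igf1 in vehicle libraries 1, 2 and 4, and 957, 533.9 and 506.1 times in PSB-KD107 libraries 1, 2 and 4. The ranges overlapped, and the ratio did not pass the exact permutation test (two-sided, p = 0.3).

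The signaling receptor Igf1r (ENSMUSG00000005533, chromosome 7 from 67952827 to 68233668) had 64.5, 85.9 and 88.5 CPM in vehicle libraries 1, 2 and 4, and 55.9, 92.1 and 59.1 CPM in PSB-KD107 libraries 1, 2 and 4. The groups overlapped, with PSB-KD107 library 2 the highest of all. The log2 fold change of Igf1r was -0.21 (SE 0.23, 95% interval -0.77 to 0.36, adjusted p = 0.813 by edgeR), and it was -0.47 with an unadjusted p-value of 0.0369 when PSB-KD107 library 2 was left out. Igf2r (ENSMUSG00000023830, chromosome 17 from 12682406 to 12769664), the receptor that clears Igf2 and also sorts lysosomal enzymes, had 537, 382 and 388 CPM in vehicle libraries 1, 2 and 4, and 551, 401 and 393 CPM in PSB-KD107 libraries 1, 2 and 4. Library 1 was the highest in both groups, and the groups overlapped almost completely. The Igf2r log2 fold change was 0.04 with a 95% interval of -0.45 to 0.53 (adjusted p = 0.96 by edgeR), so that the bounds were 0.733 and 1.45 times the vehicle level. Its antisense gene Airn had 119 to 261 counts, against 12511 to 27744 counts of Igf2r. The Igf2r level per length was 15, 8.03 and 7.92 times that of Igf1r in vehicle libraries, and 17.8, 7.86 and 12.0 times in PSB-KD107 libraries 1, 2 and 4 (exact permutation test, two-sided, p = 0.7).

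Igfbp3 (ENSMUSG00000020427, chromosome 11 from 7206086 to 7213923), the main IGF carrier of blood and a protein that also binds cell surfaces, had the smallest p-value of the 10 genes. The vehicle libraries 1, 2 and 4 had 279, 304 and 289 CPM, and the PSB-KD107 libraries 1, 2 and 4 had 178, 183 and 156 CPM. The groups lay well apart and the libraries within each group were close together. The mean went from 290.8 ± 12.3 CPM to 172.4 ± 14.2 CPM (SD, n = 3), a log2 fold change of -0.75 (SE 0.10, 95% interval -1.0 to -0.51). The treated level was 0.593 times that of vehicle (95% interval 0.501 to 0.702). In edgeR's quasi-likelihood test the unadjusted p-value of Igfbp3 was 0.000248, the 20th smallest of 14165 genes, and the adjusted p-value was 0.165, so the gene was not called by this test. With DESeq2 the adjusted p-value was 4.51e-07, and the call was kept when any of the 6 libraries was left out. The edgeR log2 fold change of Igfbp3 ranged from -0.80 to -0.69 over the same omissions, with unadjusted p-values from 0.00059 to 0.00199.

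Igfbp5 (ENSMUSG00000026185, chromosome 1 from 72857932 to 72874884), the most abundant binding protein transcript of these cells, had 941, 1110 and 1410 CPM in vehicle libraries 1, 2 and 4, and 1070, 814 and 1950 CPM in PSB-KD107 libraries 1, 2 and 4. The treated libraries included both the lowest and the highest value, so the groups overlapped. The log2 fold change of Igfbp5 was 0.15 (SE 0.35, 95% interval -0.70 to 1.0, adjusted p = 0.915 by edgeR) and turned to -0.29 without PSB-KD107 library 4. Igfbp7 (ENSMUSG00000036256, chromosome 5 from 77349240 to 77408041), a relative that binds IGFs weakly, had 31.2, 14.5 and 13.0 CPM in vehicle libraries 1, 2 and 4, and 14.1, 10.9 and 31.9 CPM in PSB-KD107 libraries 1, 2 and 4. A single library in each group stood far above the others, and the log2 fold change of Igfbp7 was -0.04 with a 95% interval of -1.31 to 1.22, or -0.65 (SE 0.44) without PSB-KD107 library 4. Polr2b, which overlaps Igfbp7 on the opposite strand, had 3238 to 5316 counts against 339 to 1222 counts of Igfbp7, and the use of strand in the authors' counting is not given in the sources used here.

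The remaining binding proteins were scarce and spread widely within each group. Igfbp2 (ENSMUSG00000039323, chromosome 1 from 72824503 to 72852474), a carrier that also binds integrins, had 1.91, 11.5 and 7.75 CPM in vehicle libraries 1, 2 and 4, and 0.953, 12.3 and 14.7 CPM in PSB-KD107 libraries 1, 2 and 4. Library 1 was the lowest of either group. Igfbp4 (ENSMUSG00000017493, chromosome 11 from 99041244 to 99054392) had 7.55, 0.601 and 0.217 CPM in vehicle libraries 1, 2 and 4, and 2.60, 0.0321 and 2.23 CPM in PSB-KD107 libraries 1, 2 and 4, where the value of PSB-KD107 library 2 was a single count, under the floor. Igfbp6 (ENSMUSG00000023046, chromosome 15 from 102144362 to 102149511), which prefers Igf2 over Igf1, had 1.40, 3.23 and 2.51 CPM in vehicle libraries 1, 2 and 4, and 1.25, 3.78 and 0.550 CPM in PSB-KD107 libraries 1, 2 and 4. The groups overlapped for all 3 genes. Their log2 fold changes were 0.41 for Igfbp2 (95% interval -2.06 to 2.88), -0.78 for Igfbp4 (-4.60 to 3.05) and -0.36 for Igfbp6 (-2.13 to 1.41). Without PSB-KD107 library 4 they were -0.09, -1.06 and 0.07. The 95% intervals hold changes of more than 2-fold in either direction, so these libraries settle neither the size nor the direction of a difference.

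**Figure D2:**
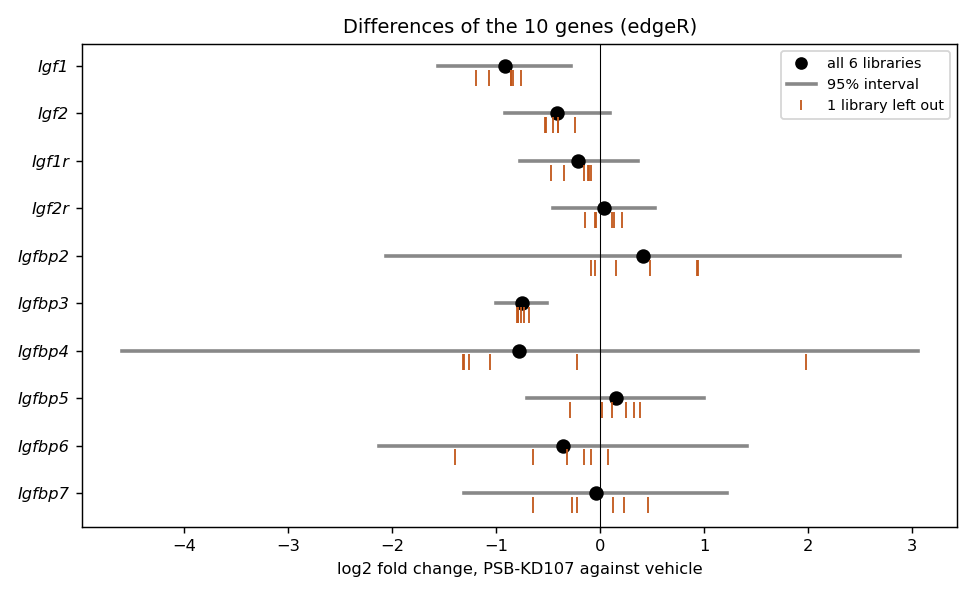
Log2 fold change of each of the 10 genes, PSB-KD107 against vehicle (horizontal axis), from edgeR over all 6 libraries (points) with 95% intervals (bars) and with each library left out in turn (short vertical lines). The intervals of Igf1 and Igfbp3 lie below 0, and Igf2r, Igfbp2, Igfbp4, Igfbp5, Igfbp6 and Igfbp7 have values on both sides of 0 when a library is left out.

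The make-up of the binding protein transcripts was then compared as shares of their summed FPKM. Igfbp5 held 56.8%, 60.9% and 68.2% of the sum in vehicle libraries 1, 2 and 4, and 71.6%, 63.6% and 79.2% in PSB-KD107 libraries 1, 2 and 4. Igfbp3 held 32.4%, 32.0% and 26.8% in vehicle libraries, and 22.8%, 27.5% and 12.2% in PSB-KD107 libraries 1, 2 and 4. The shares overlapped between the groups for both genes, with the extreme values in PSB-KD107 library 4. Counted directly, there were 29.7, 27.4 and 20.5 Igfbp3 reads per 100 Igfbp5 reads in vehicle libraries 1, 2 and 4, and 16.6, 22.5 and 8.01 in PSB-KD107 libraries 1, 2 and 4. The exact permutation test of this ratio gave p = 0.2 (two-sided). As its smallest possible value is 0.1, it cannot decide whether the ratio differed. The summed FPKM of the 6 genes was 275.7 to 344.6 in vehicle libraries and 213.1 to 410.2 in PSB-KD107 libraries, so the groups overlapped in the sum.

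**Figure D3:**
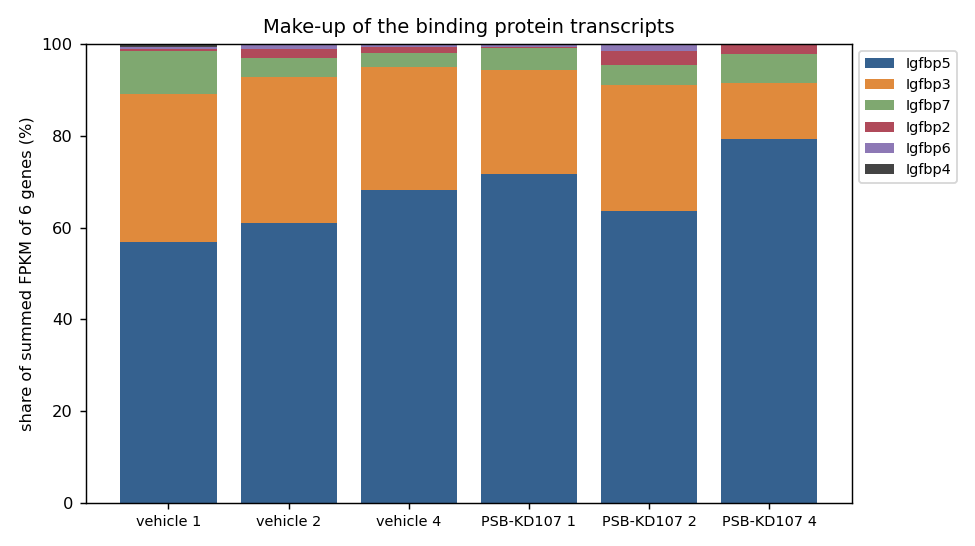
Share of each binding protein gene in the summed FPKM of Igfbp2 to Igfbp7 (vertical axis, percent) in each of the 6 libraries (bars). Igfbp5 and Igfbp3 together make up most of every bar, and the Igfbp3 share is smallest in PSB-KD107 library 4, at 12.2%.

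PSB-KD107 library 4 held the lowest value of the 6 libraries for Igf2, Igfbp3 and Igfbp6 and the highest for Igfbp2, Igfbp5 and Igfbp7. Genes of other cell types were therefore read beside these values. The sum of the 10 fibro-adipogenic markers was 153 to 402 CPM in vehicle libraries and 65.4 to 328 CPM in PSB-KD107 libraries, mostly Col3a1, and Lum was at 0 in all libraries. The 10 endothelial and mural markers summed to 9.18 to 17.1 CPM and 7.73 to 18.5 CPM, with Tie1 and Emcn at 0, the 8 immune markers to 2.39 to 5.10 CPM and 0.962 to 7.33 CPM, with Adgre1 and Tyrobp at 0, and the 4 Schwann cell markers to 1.45 to 4.09 CPM and 1.21 to 3.43 CPM. None of these sums separated the groups, while Ly6a was 8.35 CPM in PSB-KD107 library 4 and at most 1.29 CPM in the other 5 libraries. The part of such cells in the values of the 10 genes was not tested.

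Some markers of the myogenic cells themselves were lower beside Igf1, Igf2 and Igfbp3. Pax7, the satellite cell transcription factor, had 68.7, 49.8 and 60.0 CPM in vehicle libraries 1, 2 and 4, and 34.0, 26.7 and 35.1 CPM in PSB-KD107 libraries 1, 2 and 4 (log2 fold change -0.90, unadjusted p = 0.00164 by edgeR, adjusted p = 0.0018 by DESeq2). Myog had 2040, 2200 and 2160 CPM and 1170, 1720 and 1660 CPM in the same order (log2 fold change -0.49, unadjusted p = 0.0309 by edgeR). Of the 9 myoblast markers tested, 1 was lower and 0 higher at an unadjusted p-value under 0.05, and of the 17 differentiation markers tested, 4 were lower and 0 higher, beside 2.93% and 6.47% of all genes. These were Gm7325 (myomixer, a fusion protein), Actc1, Myog and Myh3. The median log2 fold changes of the myoblast and differentiation markers were -0.08 and -0.07, and -0.09 and -0.24 without PSB-KD107 library 4. The differentiation markers went from 10 lower and 7 higher to 16 lower and 1 higher without that library. The myoblast markers went from 7 lower and 2 higher to 5 lower and 4 higher. Over all 14447 genes tested without that library, 7454 were lower and 6993 higher. Myf5 had 3.57 to 21.3 CPM and 4.23 to 40.9 CPM, and Myod1 had 515 to 1060 CPM and 398 to 764 CPM, in vehicle and PSB-KD107 libraries. Des, the highest of the myoblast markers, had 2780 to 3650 CPM and 2900 to 3930 CPM. In bulk RNA, fewer cells of a type and less transcript per cell cannot be told apart, and the part of myoblast state in the levels of the 10 genes was not tested.

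The proteins that cut or hold IGF binding proteins were considered next, as 12 listed genes of which 8 were tested. At an unadjusted p-value under 0.05, 3 were higher and 1 was lower, where 6.47% of all genes were higher and 2.93% lower. Their median log2 fold change was 0.21, and it was -0.17 without PSB-KD107 library 4. In that fit 3 were higher and 2 lower at the same p-value, beside 6.92% and 3.65% of all genes. The lower genes were then Adam12 and Stc1, and the log2 fold change of Stc1 went from 0 to -1.18. Adam12, a membrane metalloprotease known to cleave Igfbp3 and Igfbp5, had 15.3, 8.13 and 9.89 CPM in vehicle libraries 1, 2 and 4, and 3.52, 2.12 and 3.27 CPM in PSB-KD107 libraries 1, 2 and 4. The groups did not overlap, and the log2 fold change of Adam12 was -1.90 (SE 0.33, adjusted p = 0.189 by edgeR and 1.9e-05 by DESeq2). Ctsd, a lysosomal protease that reaches the lysosome through Igf2r, had 582, 680 and 678 CPM with vehicle and 1090, 1060 and 928 CPM with PSB-KD107, a log2 fold change of 0.67 (SE 0.12, adjusted p = 0.206 by edgeR and 0.000779 by DESeq2). Adam9, another metalloprotease, had a log2 fold change of 0.43 (SE 0.11, unadjusted p = 0.00894 by edgeR). Stc2, an inhibitor of the protease that cuts Igfbp4, had 12.1, 16.3 and 9.77 CPM with vehicle and 17.2, 25.2 and 75.5 CPM with PSB-KD107, with library 4 far above the others. The log2 fold change of Stc2 was 1.63 (SE 0.58), and 0.74 (SE 0.28) without that library. The protease itself, Pappa, had 3.47, 1.77 and 1.40 CPM with vehicle and 1.53, 1.25 and 0.412 CPM with PSB-KD107, and the secreted protease Htra1 had 9.64, 2.29 and 2.26 CPM and 5.10, 1.89 and 32.2 CPM. The log2 fold change of Htra1 turned from 1.46 to -0.43 without PSB-KD107 library 4. The binding protein genes Igfbp1 and Igfbpl1 had no count in any library. Among 5 tested CCN proteins, which share a domain with the binding proteins, Wisp2 was lower (4.56, 4.78 and 3.16 CPM against 0.695, 1.15 and 1.87 CPM), with a log2 fold change of -1.75 and an adjusted p-value of 0.00443 in DESeq2. Nov had 0.433, 0.172 and 0.403 CPM with vehicle and 2.34, 1.09 and 0.275 CPM with PSB-KD107, and Ctgf had 6.32, 2.55 and 1.30 CPM and 6.36, 2.89 and 19 CPM, with overlapping groups for both. Without PSB-KD107 library 4 the log2 fold change of Ctgf was 0.45 in place of 1.47, and that of Nov was 2.35 in place of 1.88.

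The genes downstream of the receptors were counted at the same unadjusted p-value of 0.05, which 9.4% of all genes passed, 6.47% higher and 2.93% lower. Of 17 tested receptors and adaptors of the insulin family, 2 were higher and 0 lower (median log2 fold change 0.13). Without PSB-KD107 library 4 there was 1 higher, Irs2, beside 6.92% of all genes, with a list median of 0.04. Irs2, an adaptor that links Insr and Igf1r to PI3K, had 3.67, 6.73 and 4.90 CPM in vehicle libraries 1, 2 and 4, and 9.06, 10.7 and 7.28 CPM in PSB-KD107 libraries 1, 2 and 4 (log2 fold change 0.82, unadjusted p = 0.0276 by edgeR). The insulin receptor Insr had 64.6, 73.7 and 72.7 CPM and 76.1, 92.4 and 98.1 CPM in the same order (log2 fold change 0.34, unadjusted p = 0.0349 by edgeR). These 2 of the 17 tested genes, Insr and Irs2, were higher in every PSB-KD107 library than in any vehicle library, as were 9.19% of all genes. Without PSB-KD107 library 4 the log2 fold change of Insr was 0.26 (unadjusted p = 0.0906 by edgeR). That of Irs2 was then 0.96 (unadjusted p = 0.023 by edgeR). The log2 fold changes of Irs1, Shc1 and Grb10 were 0.31, 0.30 and 0.90, and their groups overlapped. Without PSB-KD107 library 4 these 3 values were 0.09, 0.19 and 0.33.

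In the PI3K, Akt and mTORC1 list, 3 of 25 tested genes were lower and 2 higher (median log2 fold change -0.04), beside 2.93% lower and 6.47% higher over all genes. Eif4ebp1, a translation repressor that mTORC1 phosphorylates, had 53.4, 70.0 and 65.2 CPM with vehicle and 95, 109 and 101 CPM with PSB-KD107 (log2 fold change 0.69, adjusted p = 0.206 by edgeR and 0.00362 by DESeq2). Gsk3b, a kinase that Akt inhibits, had a log2 fold change of 0.37, and Pik3r3, a regulatory subunit of PI3K, had one of -0.40. Akt1 had 580 to 740 CPM over all libraries and a log2 fold change of -0.15, and Foxo1 one of 0.15, or -0.27 without PSB-KD107 library 4, with overlapping groups for both. Of 12 Ras and MAPK genes and 4 genes of the growth hormone axis, 0 were past this threshold in either direction with edgeR's quasi-likelihood test, where 0 were also called by DESeq2, and their medians were both 0.03. The smallest p-values of the first list were those of Nras, Map2k2 and Elk1, with log2 fold changes of 0.28, -0.23 and 0.25. Ghr, the growth hormone receptor, had 82.6 to 88.9 CPM with vehicle and 73.0 to 108 CPM with PSB-KD107, and the relay genes Stat5a and Jak2 had log2 fold changes of -0.17 and 0.04.

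**Figure D4:**
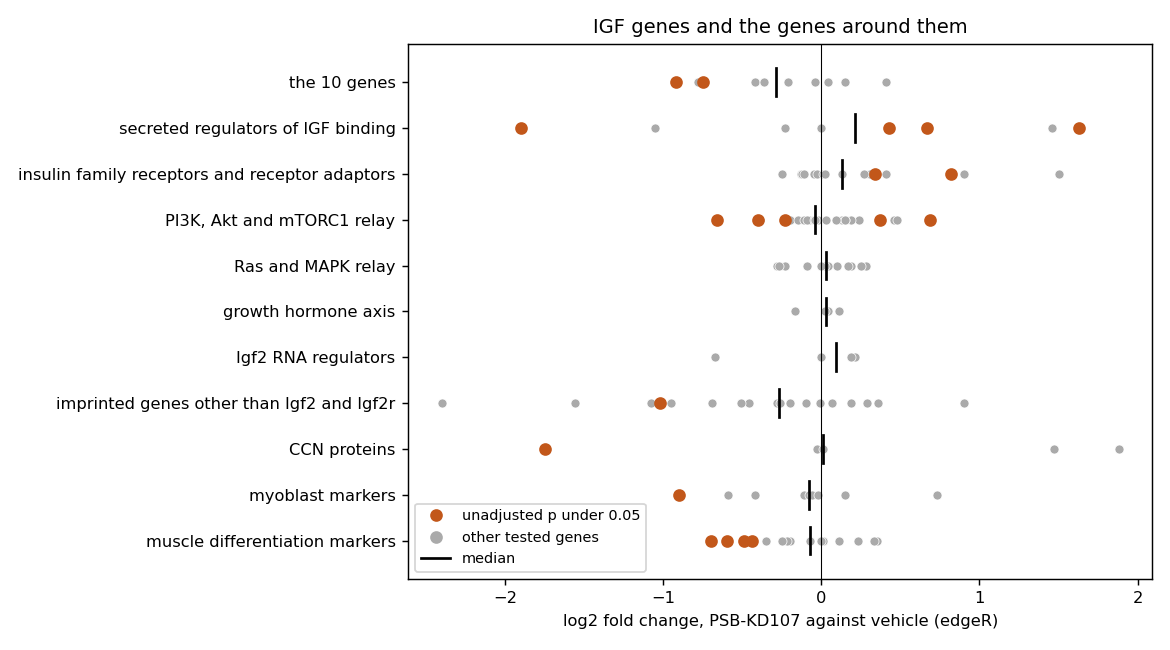
Log2 fold change of every tested gene (points) of the 10 genes, of the pathway lists and of the muscle marker lists, PSB-KD107 against vehicle, where orange marks an unadjusted p-value under 0.05 and list medians as vertical bars. The median of the 10 genes is -0.28, and that of the imprinted genes is -0.27, where it is 0 over all genes tested. In a fit without PSB-KD107 library 4 these medians are -0.27, -0.19 and -0.01.

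Igf2 belongs to the imprinted genes, many of which control growth, and 18 of 24 others listed were tested. Of these, 13 were lower and 5 higher (median log2 fold change -0.27), and 1 was lower at an unadjusted p-value under 0.05, beside 2.93% of all genes. This was Plagl1, a transcription factor that binds control regions of Igf2 and H19, with 225, 251 and 314 CPM in vehicle libraries 1, 2 and 4, and 151, 175 and 62.4 CPM in PSB-KD107 libraries 1, 2 and 4 (log2 fold change -1.02, unadjusted p = 0.0356 by edgeR). Without PSB-KD107 library 4 the log2 fold change of Plagl1 was -0.69 (SE 0.18). The list then had 14 lower and 5 higher of 19 tested (median -0.19). At the same p-value 1 was lower, Plagl1, and 1 higher, Impact (0.64), beside 3.65% and 6.92% of all genes. Mest had 927, 1320 and 1370 CPM with vehicle and 285, 896 and 43.7 CPM with PSB-KD107, a log2 fold change of -1.56, or -1.03 without that library. Cdkn1c, a cell cycle inhibitor of differentiating myoblasts, had 232, 2480 and 3890 CPM with vehicle and 89.3, 1090 and 72.2 CPM with PSB-KD107, and its groups overlapped. For Igf2, Plagl1, Mest and Cdkn1c alike the lowest value was that of PSB-KD107 library 4. H19, the noncoding RNA that shares enhancers with Igf2 and is read from the maternal copy, had 26600, 36500 and 36500 CPM with vehicle and 21700, 31900 and 28500 CPM with PSB-KD107 (log2 fold change -0.28, unadjusted p = 0.294 by edgeR). Per 100 H19 reads there were 24.7, 17.9 and 17.0 Igf2 reads in vehicle libraries 1, 2 and 4. In PSB-KD107 libraries 1, 2 and 4 there were 25.2, 17.1 and 12.4. The ranges overlapped, and the exact permutation test, which cannot go below 0.1 here, gave p = 0.8 (two-sided). Of the RNA-binding proteins that hold Igf2 transcripts, Igf2bp2 had 59.5 to 86.4 CPM with vehicle and 73.5 to 103 CPM with PSB-KD107, whereas Igf2bp1, Igf2bp3 and Lin28b stayed at or below 1.91 CPM.

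The genes whose log2 CPM was most like that of Igfbp3 over the 6 libraries, among 8908 genes with a mean of at least 10 CPM, were Apobec2 (Pearson's r = 0.994), Get4 (0.994) and Ext1 (0.991). For Igf1 they were Ralgps2 (0.996), Rras2 (0.993) and Phka2 (0.993). These correlations describe 6 libraries that fall into 2 groups, and the highest of all these genes were taken, so they say nothing about shared control.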

How the data were processed

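RNA of mdx myoblasts was sequenced in 3 vehicle and 3 PSB-KD107 libraries. The authors enriched polyadenylated RNA, prepared libraries with a directional kit, sequenced read pairs, aligned them with STAR to the mouse genome (mm10 per the labels) and deposited raw counts per gene. The counting program, annotation and strand setting are not given in the sources used here, which leaves counts of overlapping genes uncertain. Libraries numbered 1 and 2 match the sample records. Those numbered 4 in the table were assigned to their group only, since the records number them 3.

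Counts were filtered with filterByExpr, scaled by TMM factors (0.974 to 1.03) and tested with edgeR 4.0.16, with Benjamini-Hochberg adjustment over 14165 genes at a threshold of 0.05. Standard errors are derived from the F statistic. DESeq2 1.42.0 was run on all genes with a count, and limma 3.58.1 with voom. FPKM values use exon lengths of GENCODE M21 (GRCm38), which matched 46574 of 47069 genes with 99.98% of the counts. Promoters of all 10 genes are from RefSeq (GRCm38.p6). No protein sequences were used here. Scripts were tested on simulated data.

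The genes named are the 10 genes, the 3 tested genes with the smallest unadjusted p-value of each pathway list, genes of IGF biology and cell type markers set by name, and for Igf1 and Igfbp3 the genes of the highest correlation. The 10 genes and the lists were chosen with earlier results of these data known, so a count in a list is no independent evidence. Alternatives were RLE factors, other filters, DESeq2, limma-voom, a replicate block and each library left out. The lists without PSB-KD107 library 4 and the omission of single libraries in DESeq2 were added after seeing the data. The numbers were checked for pairing by correlating deviations from the group means over 14165 genes.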

Additional observations from a re-analysis of the deposited data

How the results depend on the processing

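The edgeR test called 0 genes with RLE factors, with a mean FPKM of at least 1 or with any library left out, as did limma-voom, and it called 8 with no filter on low counts, none of them among the 10 genes. DESeq2 called 410 genes, including Igf1 and Igfbp3. With each library left out DESeq2 called 160 to 768 genes (0 by edgeR) and 1 to 2 of the 10 (0 by edgeR). At an unadjusted p-value under 0.05 in DESeq2 there were 2 to 5 of the 10, with 5 without PSB-KD107 library 2. Over all genes the share under that p-value was 4.21% to 10.4% in these DESeq2 runs. Igf1 and Igfbp3 kept their direction under every alternative run, as did Igf2 and Igf1r, and 3 genes had groups without overlap under TMM, RLE and no factors.

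The deviations of same-numbered libraries correlated by 0.63, 0.57 and -0.13 for the numbers 1, 2 and 4. Those of vehicle library 4 and PSB-KD107 library 2 correlated by 0.66. Within a group the deviations of each gene sum to 0, so these correlations depend on one another and cannot decide pairing. The numbers were not taken as pairs in the main test. Whether the numbers 1 and 2 mark shared mice is not stated. A replicate block fitted to the 4 libraries that carry the numbers 1 and 2 gave 2456 called genes among 14400 tested. It called 4 of the 10 (Igf1, Igfbp3, Igfbp4 and Igfbp7, log2 fold changes -0.82, -0.69, -1.75 and -0.81). For these genes the log2 CPM ratios of PSB-KD107 to vehicle library 4, outside this fit, were -1.18, -0.89, 2.88 and 1.29. Igfbp4 and Igfbp7 thus went the other way in the libraries left out. At an unadjusted p-value under 0.05 in this edgeR fit there were 5 of the 10, beside 30.6% of all genes. The same 4 libraries without the block gave 1 of the 10 at that threshold, beside 6.42% of all genes. With the replicate block over all 6 libraries, edgeR called 0 genes, and DESeq2 called 638 genes and 2 of the 10.

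Directions of scarce or variable genes depended on single settings, and the cause was not tested. Igfbp2 went from 0.41 to -0.17 with limma-voom, -0.27 with the block and -0.01 for these 4 libraries without it. Igfbp5 went from 0.15 to -0.13 and -0.12, and Igfbp6 from -0.36 to 0.05 and 0.11, in the last 2 of these settings. With 1 library left out, edgeR and DESeq2 gave log2 fold changes of -0.15 to 0.21 for Igf2r, -0.10 to 0.94 for Igfbp2, -1.34 to 1.98 for Igfbp4, -0.31 to 0.38 for Igfbp5, -1.40 to 0.07 for Igfbp6 and -0.66 to 0.46 for Igfbp7. The counts of Igfbp4, from 1 to 296 per library, and of Igfbp6, from 20 to 118, limit what can be seen for these genes.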
